A study of Mus musculus with 10 samples.

Results

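Among cells traced from the Grem1 lineage, 102 met neither of the expression rules used here to call chondrocytes, though 71 of them were rich in cartilage transcripts. A cell here is a well of a 96-well plate that received 1 sorted cell, and expression was counted as unique molecular identifiers (UMIs), the tags that mark each captured transcript. Of 768 Grem1-TdT wells on 8 plates, 684 held at least 350 genes with a UMI and were kept. Gene counts, UMI totals and shares of these wells cover the 29183 genes analysed, which are only a part of all genes. A kept well was called articular-like if Clu, Cilp and 1500015O10Rik together made at least 2.5% of its UMIs and exceeded Cnmd, and Cnmd-rich if Cnmd made at least 1% of its UMIs and exceeded that sum. The groups were thus chosen by measured UMI shares of these 4 genes. This gave 337 articular-like wells and 245 Cnmd-rich wells, and the remaining 102 wells, called outside wells below, were 14.9% of the kept wells (exact Clopper-Pearson 95% interval 12.3 to 17.8%). With 160 Lepr-TdT wells, kept by the same minimum over a longer list of genes, the series held 844 kept wells. Intervals and detection limits in this text cover counting error only.

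All mice were C57BL/6. Grem1-TdT mice carry a tamoxifen-inducible Cre under Grem1 control with a Rosa TdTomato reporter, so that cells expressing Grem1 while tamoxifen is given, and their descendants, become red. Grem1-TdT animals of 5 to 6 weeks received tamoxifen chow for 2 weeks, their articular and growth plate cartilage was cut out of the hind limbs and digested with collagenase, and live single TdTomato positive cells were sorted with no gate on blood or endothelial surface proteins. Lepr-TdT mice, which carry a constitutive Lepr Cre, were age paired; their whole bones were digested, and the sort also required absence of CD45, Ter119 and CD31, so that tissue and gate both differed between lineages. Which plates held articular and which held growth plate cells is not given in the labels, and nothing in them says how many mice a plate represents, so the spread between plates may be technical. The study's methods say that cells of several individual samples were grouped together.

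Bone matrix is laid down by osteoblasts, which secrete type I collagen, a trimer of Col1a1 and Col1a2 chains, and late in their life osteocalcin, encoded in the mouse by the adjacent genes Bglap, Bglap2 and Bglap3. Osteocytes, the cells that remain buried in bone, make Dmp1 and Fam20c, which act in mineralisation and phosphate handling. Granulocyte precursors fill their granules first with the serine proteases Elane and Ctsg and later with the antimicrobial peptide Camp, whereas Cd74, the invariant chain of class II antigen presentation, marks B cells, dendritic cells and macrophages. Chondrocytes of all kinds make Col2a1, Acan and Cytl1, a secreted cartilage protein. Clu, Cilp and 1500015O10Rik are typical of the articular surface and Cnmd, an inhibitor of vessel ingrowth, of avascular growth cartilage.

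The marker genes given for these cells, Col1a1, Bglap and Cd74, did not describe most of the 102 wells. By thresholds set after the data were seen, 5 wells were osteoblast-like (Col1a1 and Col1a2 at 5% or more of UMIs and at least 3 of 20 osteoblast genes detected), 6 were blood-like (48 blood genes at 1% or more and at least 3 detected), and 91 were neither. The 91 were split at a cartilage matrix share of 10% (15 genes) into 20 low-cartilage and 71 cartilage-rich wells, so that most of the 102 were cartilage-rich. The outside share per plate was 14.9 ± 4.69% (mean ± SD, n = 8 plates), lowest on plate 6 with 5 of 83 wells and highest on plate 5 with 20 of 90. Osteoblast-like wells came from plates 2, 5, 7 and 9, with 2 on plate 7, and blood-like wells from plates 1, 5, 7 and 9, with 3 on plate 5. Plates 4, 6 and 8 held neither kind.

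Plate totals were similar, from 133289 to 179071 UMIs over kept wells with a median of 140648. Outside wells had a median of 1188.5 UMIs (528 to 7383), close to 1222 in articular-like wells and under 2304 in Cnmd-rich wells. The 6 blood-like wells had a median of 4646 and the 5 osteoblast-like wells of 2827. The 96 well barcodes were used on all 8 plates, and no doublet caller was run.

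Outside wells were spread below the limits, with 21 of the 102 at an articular sum of 2% or more. Clu, Cilp and 1500015O10Rik summed to at most 2.46% of UMIs in an outside well, against at least 2.56% in an articular-like well, and the medians were 1.46% and 4.77%. In 92 outside wells both shares were under their limits; the other 10 had Cnmd at 1% or more with the articular sum above it but short of 2.5%. The articular sum was at 0.5 of its limit or more in 56 outside wells, and 26 wells had both shares under 0.5 of their limits. Cnmd reached 1.60% at most outside, and its lowest share in a Cnmd-rich well was 1.01%. These shares chose the wells and are given as a description.

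**Figure D1:**
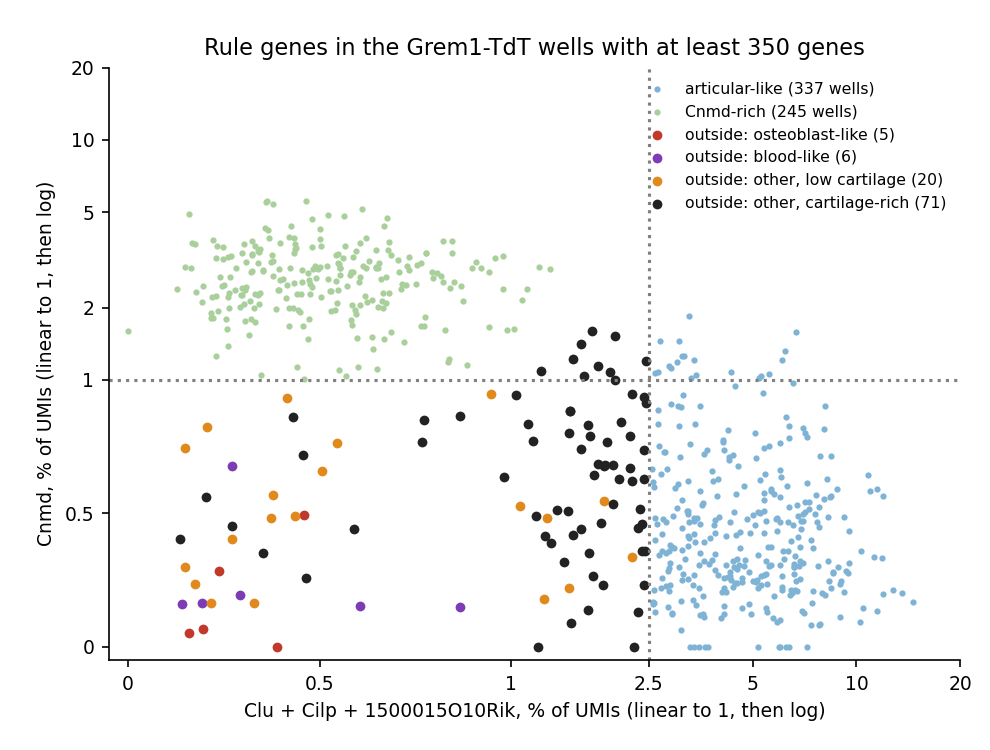
The share of UMIs from Clu, Cilp and 1500015O10Rik (x axis, percent) against the share from Cnmd (y axis, percent), both linear to 1 and logarithmic beyond, for the 684 kept Grem1-TdT wells, coloured by group, with dotted lines at the limits of 2.5% and 1%. The 71 cartilage-rich outside wells (black) have a median articular sum of 1.67%, left of the 2.5% line, while the osteoblast-like and blood-like wells sit near the lower left corner.

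**Figure D2:**
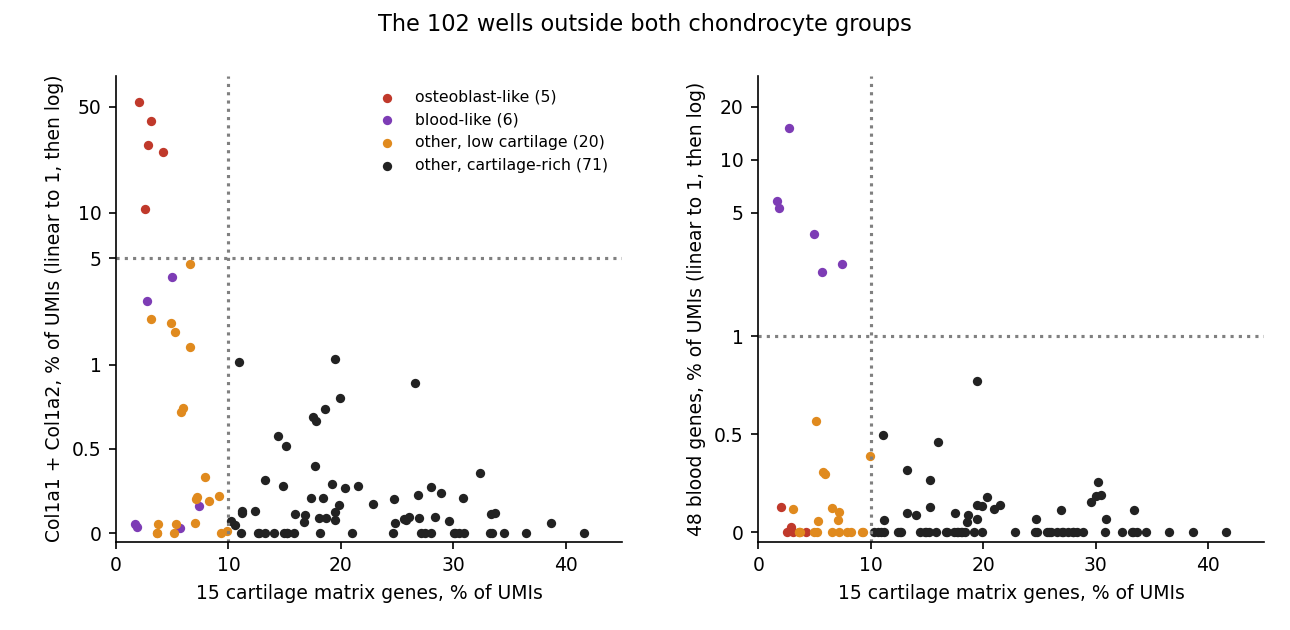
Col1a1 and Col1a2 (left, percent of UMIs) and 48 blood genes (right, percent of UMIs), each linear to 1 and then logarithmic, against the share of 15 cartilage matrix genes (x axis, percent) for the 102 outside wells; dotted lines are the thresholds of 5%, 1% and 10%. The 5 osteoblast-like wells hold 10.6 to 53.6% type I collagen and the 6 blood-like wells 2.32 to 15.2% blood transcripts, all with under 10% cartilage transcripts.

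Osteocalcin is counted over 3 near-identical genes, whose coding sequences are shown because reads from them can fit more than 1 of the 3. The genes lie side by side on the minus strand of mouse chromosome 3 (GRCm38), Bglap at chr3:88383501-88384464, Bglap2 at chr3:88377736-88378699 and Bglap3 at chr3:88368616-88372743, and each of the GENCODE transcripts used has 4 exons. Each coding sequence is 288 bases long with its stop codon. Capitals mark the 13 positions at which the 3 differ:
Bglap: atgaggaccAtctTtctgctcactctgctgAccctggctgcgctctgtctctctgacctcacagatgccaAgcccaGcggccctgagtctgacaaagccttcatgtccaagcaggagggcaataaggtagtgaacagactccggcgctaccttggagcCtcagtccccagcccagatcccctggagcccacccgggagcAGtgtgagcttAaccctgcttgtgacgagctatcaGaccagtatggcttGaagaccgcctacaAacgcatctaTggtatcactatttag
Bglap2: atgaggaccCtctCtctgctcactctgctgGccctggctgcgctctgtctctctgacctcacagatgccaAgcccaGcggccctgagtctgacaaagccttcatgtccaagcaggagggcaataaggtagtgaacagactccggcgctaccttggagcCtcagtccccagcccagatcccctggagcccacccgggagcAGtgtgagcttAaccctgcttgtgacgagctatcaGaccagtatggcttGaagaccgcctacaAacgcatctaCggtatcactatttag
Bglap3: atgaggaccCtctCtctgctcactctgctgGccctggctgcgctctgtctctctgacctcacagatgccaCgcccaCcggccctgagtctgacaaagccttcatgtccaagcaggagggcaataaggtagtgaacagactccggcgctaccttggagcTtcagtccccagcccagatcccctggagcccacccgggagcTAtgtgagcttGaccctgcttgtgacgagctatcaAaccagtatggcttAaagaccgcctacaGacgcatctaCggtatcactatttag
Bglap and Bglap2 differed at 4 bases (98.6% identity), Bglap2 and Bglap3 at 9 (96.9%) and Bglap and Bglap3 at 13 (95.5%). Of all 58-base stretches of each transcript, the length of the cDNA read, 27.9% were unique to Bglap, 15.9% to Bglap2 and 80.6% to Bglap3. The split of UMIs among the 3 is therefore uncertain, most of all between Bglap and Bglap2, and the sum of the 3 is the safer quantity.

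The 5 osteoblast-like wells, named OB1 to OB5, were of 2 sorts that differed in osteocalcin. OB2 (plate 5) held 665 Col1a1, 399 Col1a2 and 800 Bglap UMIs of 3799, with 360 Bglap2 and 540 Bglap3. OB3 (plate 7) held 1149 Col1a1, 713 Col1a2 and 559 Bglap UMIs of 4606. OB5 (plate 9) held 473 Col1a1, 242 Col1a2 and 533 Bglap UMIs of 2827. In these 3 wells the osteocalcin genes summed to 44.7%, 25% and 36.4% of all UMIs. OB1 (plate 2) held 139 Col1a1 and 86 Col1a2 UMIs of 2116 but only 2 Bglap, 3 Bglap2 and 4 Bglap3. OB4 (plate 7) held the highest type I collagen share, 53.6% of 1549 UMIs from 448 Col1a1 and 383 Col1a2, with 4 Bglap UMIs, and 33 UMIs of Dmp1, the osteocyte matrix protein gene, against 0 Dmp1 in the other 4. The osteocalcin genes summed to only 0.425% of UMIs in OB1 and 0.387% in OB4, although OB4 had the highest collagen share of the 5. Type I collagen and osteocalcin together had more UMIs than all other genes analysed in OB2, OB3, OB4 and OB5.

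All 20 osteoblast and osteocyte genes of the list had a UMI in at least 1 of the 5 wells, and each well held between 11 and 16 of them. Over the 337 articular-like and 245 Cnmd-rich wells, 19 and 20 of these genes had a UMI. The list made 12 to 73.5% of UMIs in the 5 osteoblast-like wells, against medians of 0.368% in articular-like and 0.942% in Cnmd-rich wells. It includes Col11a2, which is also on the cartilage list. Beyond type I collagen and osteocalcin, the genes with the highest ratio over the 582 chondrocyte wells were Col5a2, a minor fibrillar collagen (28 UMIs, 11.3-fold), Gja1, the gap junction protein connexin 43 (29 UMIs, 5.21-fold), and the transcripts AY074887 (5.93-fold), Gm23037 (5.94-fold) and 2700038G22Rik (5.23-fold), of which 75% of the UMIs of the last were in 1 well. Col1a1 itself was 435-fold and Col1a2 124-fold higher per 1000000 UMIs. The same cells were used to choose the wells, so these ratios describe them and were not tested. Genes of blood and vessel cells were at low counts. The granulocyte list had 6 UMIs in 4 of the 5 wells (0.0403% of 14897 UMIs), the B cell list and the T and NK cell list 1 each, and the monocyte, erythroid and endothelial lists 0, which allows a share of up to 0.0201%.

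**Figure D3:**
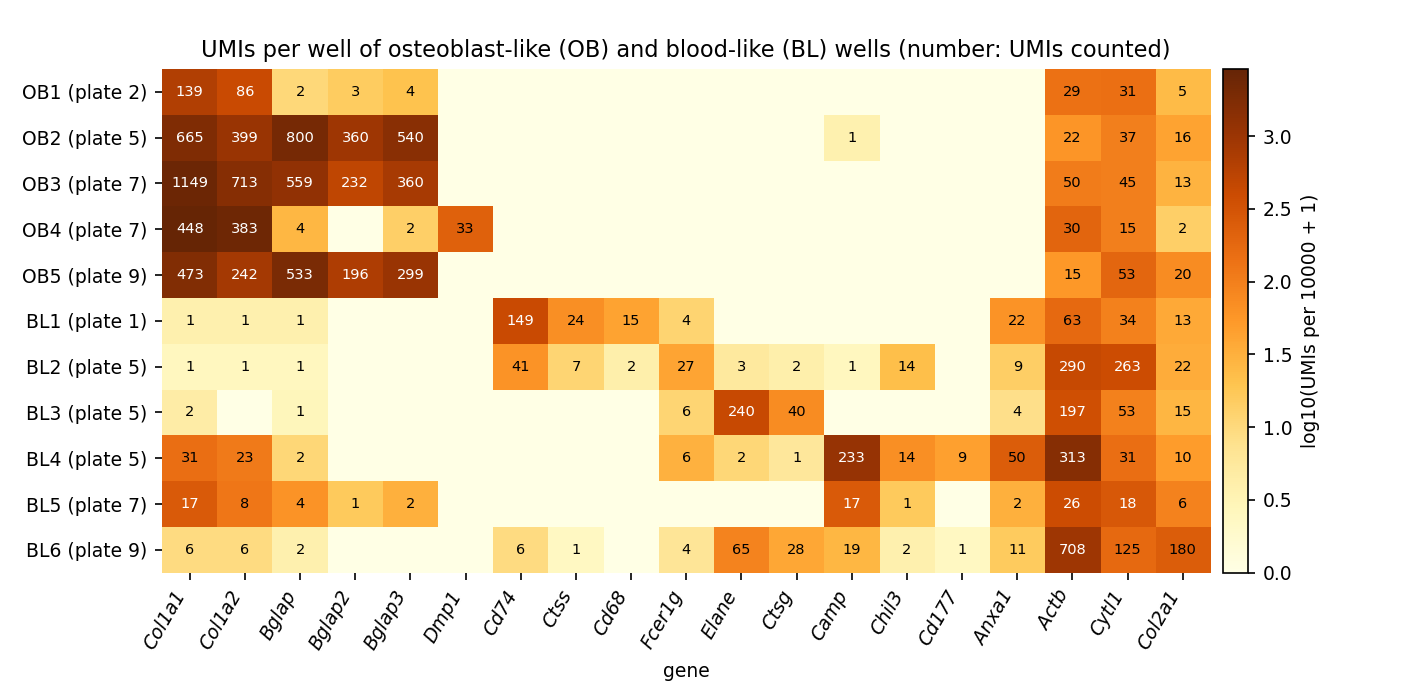
UMIs of 19 genes (columns) in the 5 osteoblast-like wells (OB1 to OB5) and 6 blood-like wells (BL1 to BL6); numbers are UMIs counted and the colour is on a log10 scale of the share of the well's UMIs. Type I collagen is high in all OB wells, osteocalcin in OB2, OB3 and OB5, Dmp1 only in OB4, and each blood-like well has its own set of granulocyte or antigen presentation genes.

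The 6 blood-like wells, BL1 to BL6, did not form a single cell type. BL1 (plate 1) held 149 UMIs of Cd74 with 24 of Ctss, the cathepsin that trims the invariant chain, 15 of the lysosomal macrophage gene Cd68 and 12 of Cd14, a lipopolysaccharide co-receptor, and no Elane or Camp. BL2 (plate 5) held 41 Cd74, 33 Cd14, 27 Fcer1g, the signalling chain of Fc receptors, and 5 UMIs of the monocyte chemokine receptor Ccr2. It also held 14 Chil3 UMIs and 9 of 13 cell cycle genes. Its 3 Elane, 2 Ctsg and 1 Camp UMIs are not read as expression. Chondrocyte wells of plate 5 held up to 2, 2 and 4 UMIs of these genes. Cartilage transcripts made 5.70% of BL2, with 263 Cytl1 and 69 Chad UMIs. BL1 and BL2 held 6 and 7 of 12 monocyte and macrophage genes, 4 and 10 of 14 granulocyte genes, and 6 each of 14 B cell and antigen presentation genes. The 10 granulocyte genes of BL2 include Elane, Ctsg and Camp. Cd14 also had a UMI in 23.5% of chondrocyte wells and was not among the 48 blood genes. These full lists also hold Anxa1, Cyba, Cd24a, Arhgdib and Ebf1, left out of the 48 for the same reason.

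BL3 (plate 5) held 240 UMIs of Elane and 40 of Ctsg, the proteases of early granules, with no Camp, and 11 of 13 cell cycle genes. BL4 (plate 5) had 233 Camp, 50 Anxa1, an anti-inflammatory lipid-binding protein abundant in neutrophils, 14 Chil3 and 9 Cd177, a neutrophil surface protein, but 2 Elane and 1 Ctsg UMI, beside 31 Col1a1 and 23 Col1a2 UMIs that made 2.62% of its total. Anxa1 also had a UMI in 47.8% of chondrocyte wells and was not among the 48 blood genes. BL5 (plate 7) had 17 Camp UMIs of only 662 in all, together with 17 Col1a1. BL6 (plate 9) had the most UMIs of any outside well, 7383, with 65 Elane, 28 Ctsg and 19 Camp, 26 blood genes in all, and also 180 Col2a1 and 50 Cnmd UMIs. BL3 was thus high in early granule genes, BL4 in Camp beside type I collagen, and BL6 in both sets beside cartilage transcripts. Whether BL2, BL4, BL5 and BL6 each held 1 cell was not tested.

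The blood list made 2.32 to 15.2% of UMIs in these wells. All 14 granulocyte genes and 11 of 14 B cell and antigen presentation genes had a UMI in at least 1 of the 6 wells, but Cd74 was at 0 in BL3, BL4 and BL5. Over the 337 articular-like wells, and likewise over the 245 Cnmd-rich wells, 13 and 12 of these genes had a UMI. Their medians there were 0.129% and 0.0723% for the granulocyte list and 0 for the B cell list. T and NK cell genes had 1 UMI in all and endothelial genes 0. The 10 genes with the highest ratio over chondrocyte wells were Gatm, an enzyme of creatine synthesis (144-fold from 11 UMIs), Adgrg3, an adhesion receptor (102-fold), Cybb, the catalytic subunit of the phagocyte oxidase (98.2-fold), Chil3 (93.7-fold), Cd52, a leukocyte surface glycoprotein (82.3-fold in 6 of 6 wells), Fcer1g (80.3-fold), Cd177 (78.6-fold), Cxcr4, the receptor that holds leukocytes in marrow (74.2-fold), Ctsc, which activates granule proteases (73.0-fold), and Fcgr2b, an inhibitory Fc receptor (72.0-fold). These ratios rest on 10 to 47 UMIs each, and 1 well held 90% of Cd177 and 84.6% of Ctsc. As with the osteoblast-like wells they describe the choice and were not tested.

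The 20 low-cartilage wells that were neither osteoblast-like nor blood-like had a median of 1014 UMIs and 6.25% cartilage transcripts (3.10 to 9.89%). Of these, 6 came from plate 1 and 5 from plate 2, and no other plate gave more than 2. Their osteoblast list share had a median of 1.30%, beside 0.368% in articular-like and 0.942% in Cnmd-rich wells. Among them 18 of the 20 genes of that list were detected, beside 19 over the 337 articular-like and 20 over the 245 Cnmd-rich wells. Dmp1, Fam20c, Ddit4l, an inhibitor of mTOR signalling, and Ffar4, a fatty acid receptor, were detected together in 2 of these wells and 3 of the 4 genes in 2 more. A plate 1 well held 13 Dmp1, 12 Fam20c, 29 Ddit4l and 7 Ffar4 UMIs of 1846, and a plate 2 well held 9, 6, 9 and 4 of 1978. A second plate 2 well held 0, 9, 12 and 2, and a plate 7 well 0, 2, 2 and 3. None of these 4 wells reached 2% type I collagen, and none of the 582 chondrocyte wells held 3 of the 4 genes. The 4 genes were put together after their values were seen. The 10 genes with the highest ratio of the 20 wells over chondrocyte wells included 3 of them, Ffar4 (149-fold, from 17 UMIs against 4 over the chondrocyte wells), Fam20c (11-fold) and Ddit4l (9.58-fold). The others were Bmp8a, a bone morphogenetic ligand (15.2-fold), the adhesion molecule Cadm1 (11.7-fold), the matrix protein Ecm1 (9.29-fold) and the predicted transcripts Gm24146, Gm23973, Gm23037 and Gm23935 (8.04 to 28.5-fold).

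Single wells accounted for much of what else set the low-cartilage wells apart. A plate 1 well with 26 Col1a1 and 50 Col1a2 UMIs of 1661 fell just short of the collagen threshold at 4.58%. A plate 8 well of 5907 UMIs held 5 Cd79a and 9 Ebf1 UMIs, both B cell genes, with 11 blood genes and 0.389% blood transcripts, also below its threshold. Ebf1 also had a UMI in 13.2% of chondrocyte wells. Smooth muscle actin, Acta2, had 11 UMIs in 1 plate 2 well and 2 in 1 other. A plate 6 well held 46 UMIs of 2700038G22Rik and 48 of Gm23037, 6.84% and 7.13% of its 673 UMIs, and a plate 9 well 101 of Gm23935, 11% of its UMIs. Of 8 marrow stroma genes, 4 had a UMI in these wells, 13 UMIs in 8 of the 20 wells and at most 0.594% of a well, and Cxcl12, the chemokine of marrow stroma, had 0 (29146 UMIs, which allows up to 0.0103%).

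The 71 cartilage-rich wells were set apart by a cartilage share of 10% or more, so their share is fixed in part by that choice. Their median was 19.8% beside 20.8% in articular-like and 16.9% in Cnmd-rich wells. Their median Cytl1 share was 11.6%, near the 14.2% of articular-like wells and above the 1.84% of Cnmd-rich wells. Col10a1, the collagen of hypertrophic cartilage, reached 1% of UMIs in 11 of the 71 (15.5%), in 46 of 337 articular-like wells (13.6%) and in 3 of 245 Cnmd-rich wells (1.22%). Over all 91 wells that were neither osteoblast-like nor blood-like, the genes with the highest ratio over chondrocyte wells were F13a1, a coagulation factor subunit made by chondrocytes and macrophages (4.32-fold), Ddit4l (3.93-fold), Col10a1 (2.96-fold), Frzb, a secreted Wnt antagonist (2.87-fold), Bmp2, a bone morphogenetic ligand (2.47-fold), Cdc42ep3 (2.46-fold), Atxn7l3b (2.36-fold) and the predicted transcripts Gm24245, Gm23935 and Gm15564 (3.18 to 3.63-fold). Over the 71 cartilage-rich wells alone the highest ratios were 3.72-fold (Frzb), 3.46-fold (F13a1) and 3.44-fold (Col10a1). The ratios are over both chondrocyte groups pooled. Col10a1 was at 9574 UMIs per 1000000 in the cartilage-rich wells, beside 5195 in articular-like and 1133 in Cnmd-rich wells. Its ratio over the pooled wells is thus larger than over articular-like wells alone. A cartilage-rich well of plate 5 held 149 Bglap, 91 Bglap2 and 94 Bglap3 UMIs of 1435, so that osteocalcin made 23.3% of its UMIs, near the 25% of OB3, beside 2 UMIs of Col1a1 and 21.5% cartilage transcripts.

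UMIs were summed per plate over the outside wells and over each chondrocyte group, and the sums were compared by edgeR's quasi-likelihood test over 859 genes, with the 4 genes of the rule left out. The rule sorted the same cells, so both comparisons are a description, no p-value is given for a gene, and the 2 comparisons share the outside sums. All 8 plates and all 102 wells entered. Values are counts per 1000000 (CPM) scaled by the trimmed mean of M-values, and errors are SDs over 8 plates.

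Against articular-like sums, 62 of 859 genes (7.22%) passed an adjusted p of 0.05, 25 higher (2.91%) and 37 lower (4.31%) outside, and 6 genes (0.698%) did not overlap between the groups. Those 6 were all lower outside. Gas1, a surface co-receptor of Hedgehog ligands, stood at 1065 ± 674 CPM outside and 5440 ± 1375 CPM in articular-like sums, 5.30-fold lower. Dcn, the collagen-binding proteoglycan decorin, stood at 10396 ± 3526 against 35601 ± 6400 CPM, 3.43-fold lower. Cdo1, a cysteine-degrading enzyme, was 4.13-fold lower, Atf7ip, a chromatin factor, 3.82-fold, Cox7a2, a cytochrome oxidase subunit, 2.50-fold, and Cd47, a surface protein that inhibits phagocytosis, 1.99-fold. Each was lower outside on 8 of 8 plates. Cytl1 was 1.81-fold lower (131281 ± 53786 against 237421 ± 50551 CPM), the only 1 of 15 cartilage genes called, and Col2a1 was called in neither direction (23805 ± 7832 against 21331 ± 5991 CPM). Col10a1 (9450 ± 3721 against 8843 ± 5972 CPM) and Bmp2 (826 ± 1127 against 604 ± 149 CPM) were also not called. F13a1 was called higher outside (2.74-fold).

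Genes of bone and blood were higher outside on some plates and at or near 0 on others. Col1a1 in the outside sums was 2560, 9214, 0, 26560, 443, 153897, 64.3 and 27964 CPM on plates 1, 2, 4, 5, 6, 7, 8 and 9, beside 64.8 to 1735 CPM in articular-like sums. Its 4 highest plates were the 4 with osteoblast-like wells. Bglap ran from 0 CPM on plate 4 to 53387 CPM on plate 7, with a median of 653, and Cd74 was at 0 on 5 plates and at 10588 CPM on plate 1. Of 10 osteoblast genes tested 6 were called higher (Bglap3, Bglap2, Col1a2, Col1a1, Bglap and Alpl, an enzyme of mineralisation) and 0 lower, with a median log2 fold change of 2.46 beside 0.0044 over all genes tested. The 5 osteoblast-like wells held 94.9% of the outside UMIs of Col1a1, 87.1% of Col1a2 and 88.9% of Bglap, and the 6 blood-like wells 97.5% of Cd74 and of Camp and 97.2% of Elane. Without those 11 wells 17 genes were called against articular-like sums, Col1a1 and Col1a2 no longer among them (log2 fold change 0.74 and 0.60), while all 6 genes named above as lower kept their calls. Those wells were chosen by Col1a1 and Col1a2, or by a list that holds Cd74, Camp and Elane. Their shares of these genes and the loss of the collagen calls thus follow in part from that choice and are a description. Leaving out plate 1, 2, 5, 7, 8 or 9 gave 33, 34, 24, 28, 36 and 30 calls, and the call of Bglap was lost without plate 5 and without plate 7.

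Against Cnmd-rich sums, 187 of 859 genes (21.8%) were called, 114 higher (13.3%) and 73 lower (8.5%) outside, and 37 (4.31%) did not overlap. Of 15 cartilage genes 12 were called lower, among them Col9a1 (1249 ± 710 against 6563 ± 742 CPM, 5.19-fold) and Epyc, a small proteoglycan of growth cartilage (129 ± 170 against 1557 ± 265 CPM, 9.47-fold), and 2 higher, Cytl1 and Chad. Col2a1 was 3.85-fold lower (23805 ± 7832 against 91704 ± 11852 CPM). The list had a median log2 fold change of -1.78 beside -0.0404 over all genes. All 5 tested genes of the articular list were called higher, Abi3bp, Gas1, Creb5, Cd200 and Foxo1, with a list median of 3.11. Against articular-like sums 0 of these 5 were called higher and 2 lower, Gas1 and Abi3bp. Of 10 osteoblast genes 6 were called higher (Col5a2, Col1a2, Col1a1 and the 3 osteocalcin genes) and Col11a2 lower. Col11a2 is on the cartilage list too and is also counted among its 12 genes called lower. The call of Bglap was lost without plate 5, 6 or 7, that of Bglap3 without plate 5 or 7, and that of Bglap2 without plate 7. With the plate as a block, Bglap (log2 fold change 1.72) and Bglap3 (1.91) were not called.

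The genes furthest apart from Cnmd-rich sums, by the rule for named genes, were 10 higher and 10 lower. Higher outside were Bmp2 (826 ± 1127 against 52.9 ± 56.1 CPM, 11.1-fold), Abi3bp, a matrix protein (812 ± 393 against 73.0 ± 28.7 CPM, 10.3-fold), the cyclin Ccnd2 (8.99-fold), Cd14 (8.92-fold), Gas1 (8.63-fold), Col10a1 (9450 ± 3721 against 1330 ± 1027 CPM, 7.02-fold), Col5a2 (6.97-fold), Cp, the copper carrier ceruloplasmin (6.96-fold), the growth factor receptor Fgfr2 (6.92-fold) and Cilp2, a cartilage intermediate layer protein (5.53-fold). Lower outside were Gm37788 (12.5-fold), C1qtnf3, a secreted protein of growth cartilage (10.2-fold), Epyc, Car12, a carbonic anhydrase (7.09-fold), Clec11a, a bone growth factor (6.47-fold), Flywch2 (6.01-fold), Col9a1, Col12a1 (5.00-fold), Gm11225 (4.43-fold) and Fscn1, an actin bundling protein (4.13-fold). Bmp2 outside was 3543 CPM on plate 6 and 151 to 935 CPM on the other 7. Of the genes higher than in Cnmd-rich sums, Abi3bp (1.76-fold), Gas1 and Cilp2 were called lower outside than in articular-like sums. Ccnd2 (1450 ± 540 outside against 1666 ± 543 CPM articular-like), Cd14, Cp, Col5a2, Col10a1 and Bmp2 were not called in that comparison.

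Transcripts of blood-like wells were also found at low counts in other wells of the same plate. On plate 5, BL3 held 240 of 269 Elane UMIs, and the other 29 lay in 20 of 95 wells at 1 to 3 UMIs each. On plate 1, 166 of 184 Elane UMIs were in 1 Cnmd-rich well and 18 in 16 others, and on plate 9, BL6 held 65 of 71 and 6 other wells 1 each. Plates 2, 4, 6, 7 and 8 had 0 Elane UMIs in all 96 wells. Elane was thus seen outside its richest well on the plates that had a rich well and on no other, with 8.45 to 10.8% of its UMIs outside that well.

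Camp was less concentrated in single wells than Elane on most plates where it was found. On plate 5, BL4 held 233 of 273 UMIs and 28 other wells the remaining 40, and on plate 8 an articular-like well held 85 of 111 with 26 in 19 others. On plate 9, BL6 held only 19 of 39, a Cnmd-rich well held 11, and 20 in all lay outside BL6. The share outside the richest well was 14.7%, 23.4% and 51.3% on plates 5, 8 and 9. Plates 1, 2, 4, 6 and 7 had 0 to 21 Camp UMIs in all. Cd74 on plate 1 was in 2 rich wells, 149 UMIs in BL1 and 136 in the Cnmd-rich well that held Elane, and 20 UMIs were spread over 16 further wells. A count of 1 to 3 UMIs of Elane or Camp in a well of such a plate is therefore at the level seen across chondrocyte wells, whose median in wells with a UMI was 1 for both genes on plate 5, and is not read as expression.

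**Figure D4:**
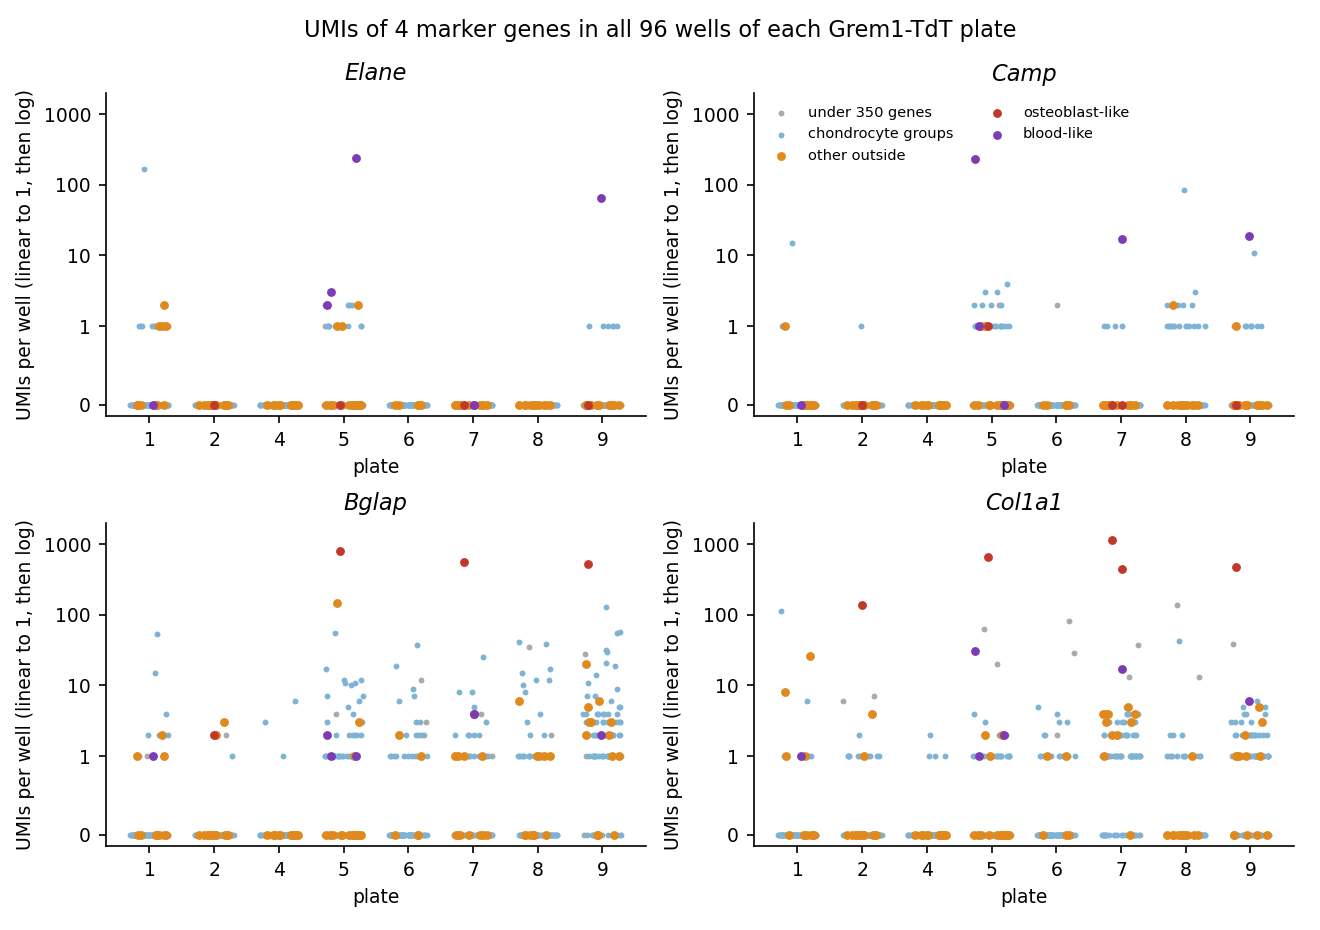
UMIs per well (y axis, linear to 1, then logarithmic) of Elane, Camp, Bglap and Col1a1 in all 96 wells of each Grem1-TdT plate (x axis), coloured by kind of well. Elane and Camp show single rich wells above a layer mostly at 1 to 4 UMIs on the same plate, while Bglap has many wells between 1 and 149 UMIs below the 3 rich osteoblast-like wells.

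Bglap was more widely spread, and its level in chondrocyte wells differed between plates. In articular-like and Cnmd-rich wells its level per 1000000 UMIs was 628, 26.3, 80.3, 1416, 775, 610, 1504 and 3548 on plates 1, 2, 4, 5, 6, 7, 8 and 9. The osteoblast-like wells of those plates held 0, 2, 0, 800, 0, 563, 0 and 533 Bglap UMIs. Plate 9 was highest, with a Bglap UMI in 64 of 74 chondrocyte wells. Plates 8 and 6, at 1504 and 775, had no osteoblast-like well among kept cells. Their wells under 350 genes that passed the osteoblast threshold held up to 35 and 12 Bglap UMIs. Plate 7, with 563 UMIs in its 2 osteoblast-like wells, was at 610. On plate 1 a single Cnmd-rich well held 53 of the 80 UMIs, and 8 of 73 chondrocyte wells had any. Because the plates fell into those with and without a Bglap-rich well, no correlation over plates is given.

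Bglap and Col1a1 did not occur in 1 ratio across kinds of well. Bglap per Col1a1 UMI was 1.2 in OB2 and 1.13 in OB5, 0.353 in the 2 wells of plate 7 and 0.0144 in OB1. In Cnmd-rich wells it was 0.664, 0.286, 5, 8.23, 3.68, 1.88, 15.5 and 7.85 on plates 1, 2, 4, 5, 6, 7, 8 and 9, from only 2 Bglap and 7 Col1a1 UMIs on plate 2. In articular-like wells it was 0 on plate 4 and 0.111 to 2.8 on the others. Wells under 350 genes ran from 0.0723 to 0.721 on the 6 plates where both could be compared. Cnmd-rich wells thus had more Bglap per Col1a1 than the osteoblast-like wells of the same plate on plates 2, 5, 7 and 9, and articular-like wells on plates 2, 5 and 9 but not 7 (0.186). Over all plates Bglap was 1689 UMIs per 1000000 in Cnmd-rich wells, 333 in articular-like wells and 2512 in wells under 350 genes. The split among the 3 osteocalcin genes, uncertain as stated above, varied between kinds of well. On plate 9, beside 533 Bglap, 196 Bglap2 and 299 Bglap3 UMIs in OB5, Cnmd-rich wells held 432, 137 and 260. Articular-like wells of that plate held 85, 9 and 2. On plate 5, beside 800, 360 and 540 in OB2, Cnmd-rich wells held 181, 36 and 108 and articular-like wells 20, 7 and 0. Whether these UMIs came from other wells or from the cells themselves was not tested.

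**Figure D5:**
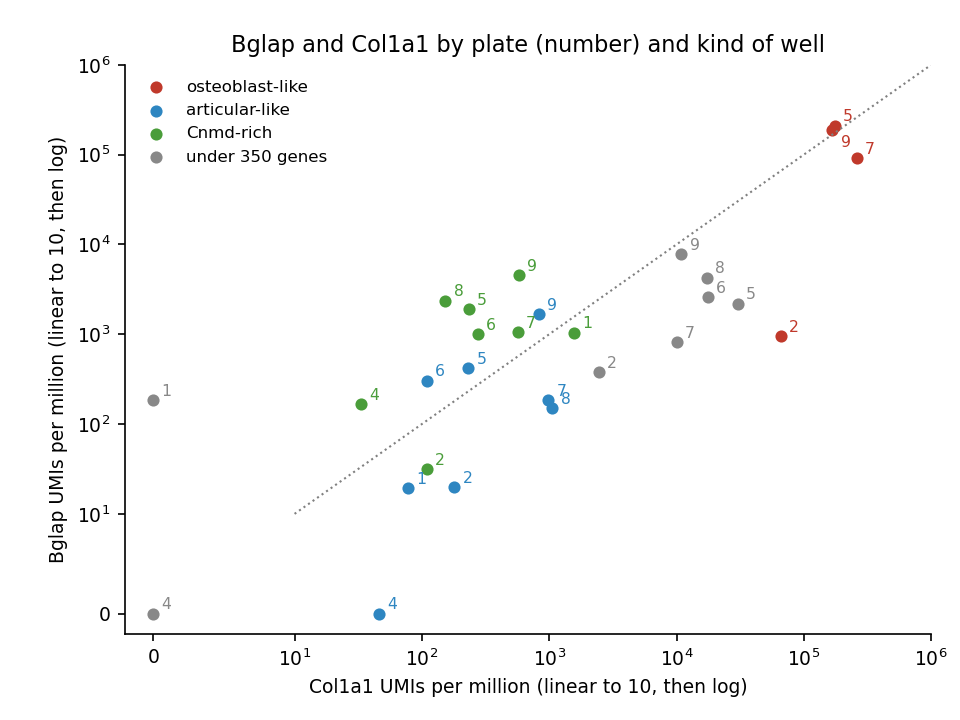
Bglap against Col1a1, both in UMIs per 1000000 (linear to 10, then logarithmic), summed per plate (number beside each point) and kind of well; the dotted line marks equal levels. Cnmd-rich wells lie above the line on 6 of 8 plates, wells under 350 genes below it where Col1a1 was found, and the plate 5 and 9 osteoblast-like wells just above it.

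Cartilage transcripts were present in every well, including those of bone and blood type. Cytl1 had at least 7 UMIs in each of the 768 Grem1-TdT wells. It made 0.968 to 1.87% of UMIs in osteoblast-like wells and 0.936 to 3.93% in blood-like wells, against medians of 14.2% in articular-like, 1.84% in Cnmd-rich and 9.05% in wells under 350 genes. The 15 cartilage genes together made a median of 2.87% (2.00 to 4.21%) in osteoblast-like and 3.85% (1.65 to 7.40%) in blood-like wells, well below the 17.8% of wells under 350 genes. Cytl1 per Col2a1 UMI was 3.23 in osteoblast-like and 2.13 in blood-like wells, between 11 in articular-like and 0.306 in Cnmd-rich wells. Of 160 Lepr-TdT wells, which are on other plates, 60 held a Cytl1 UMI, with a median of 505 UMIs per well over the genes of both tables.

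Wells with the same barcode on different plates were also compared. For 17 pairs of an osteoblast-like or blood-like well and 1 of Bglap, Col1a1, Cd74, Camp and Elane at 10 or more UMIs, the wells with the same barcode on the other 7 plates held at most 5 UMIs, except for BL6. The plate 1 well with the barcode of BL6 was the Cnmd-rich well with 166 Elane, 27 Ctsg, 15 Camp and 136 Cd74 UMIs of 6959, beside 65, 28, 19 and 6 of 7383 in BL6. Both wells also held Col2a1, 167 and 180 UMIs. OB3 on plate 7 and BL1 on plate 1 shared a barcode, and neither held more than 1 UMI of the other's markers. Over all 768 wells, Bglap reached 10 UMIs in 36 wells with 26 barcodes, of which 7 recurred on 2 or more plates and 3 on 3 plates. Those on 3 plates held 15, 12 and 129 UMIs on plates 1, 6 and 9, 53, 12 and 30 on plates 1, 8 and 9, and 11, 17 and 55 on plates 5, 8 and 9. Col1a1 reached 10 UMIs in 19 wells with 1 recurring barcode (29 and 37 UMIs on plates 6 and 7) and Cd74 in 7 wells with 0. The recurring barcode of Elane and that of Camp were both the barcode of BL6. Of the 96 barcodes, 38 were outside on 1 plate, 18 on 2, 8 on 3 and 1 on 4.

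The same thresholds were also passed by wells that the rule placed elsewhere. In the articular-like group 0 wells passed the osteoblast and 1 the blood threshold, the plate 8 well with 85 Camp. In the Cnmd-rich group 1 well passed the osteoblast threshold (113 Col1a1, plate 1) and 4 the blood threshold, on plates 1, 4, 5 and 7, with 136, 32, 24 and 20 Cd74 UMIs. Of 84 wells under 350 genes, 10 passed the osteoblast and 2 the blood threshold, with up to 27.1% type I collagen. The outside wells therefore held 6 of the 11 kept Grem1-TdT wells past the blood threshold and 5 of the 6 past the osteoblast threshold.

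In Lepr-TdT plates, which alone were sorted as CD45 negative, 57 of 74 and 50 of 86 wells passed the blood threshold, against 0 to 4 wells on each Grem1-TdT plate. The plate means were 67.6 ± 13.4% (SD, n = 2) and 1.59 ± 1.46% (SD, n = 8). Lepr-TdT wells were kept by 350 genes over a longer list of genes than Grem1-TdT wells. With 350 genes over the shared genes, 52 rather than 107 Lepr-TdT wells passed, with a plate mean of 66.8 ± 15.9%. Camp had a UMI in 158 of 160 Lepr-TdT wells with a median of 5 and a maximum of 509 UMIs, at 18947 UMIs per 1000000, and in 65 of 684 Grem1-TdT wells at 387 per 1000000, although Lepr-TdT wells were shallower (505 against 1472.5 median UMIs). Since nearly every Lepr-TdT well held Camp, passing the threshold there was not read as a blood-like well. The 2 lineages also differed in tissue and digestion, which cannot be told apart from the gate, and no test is given because the gene list and threshold were set after the values were seen.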

How the data were processed

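Single cells were sorted into 96-well plates and sequenced with UMIs, and the authors deposited whole-number UMI counts per gene and well, not normalised, in 1 table per lineage. Per the labels, the submitters' processing notes name UMI-tools, STAR, featureCounts, SAMtools and Seurat with the mm10 build, whereas the study's methods name Cell Ranger; how reads fitting several genes were treated is not given in the sources used here. The Grem1 table was used up to its last complete row, 29183 of 29184 gene rows, so genes listed later, such as Grem1, Prg4, Sox9, Ptprc and Ibsp, are not analysed here. UMI totals, shares and gene counts of Grem1-TdT wells leave those genes out. The Lepr-TdT counts list 50508 genes. Wells needed at least 350 genes with a UMI, the minimum the study states for its other single cell experiment. The members, gene lists and thresholds were chosen with earlier results of these data known, and the osteoblast, blood and cartilage thresholds after the values of single wells were seen. The blood list kept 48 of 54 listed genes, those found in at most 10% of chondrocyte wells.

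For each plate, the UMIs of each cell group with at least 5 cells were added up, and the sums were fitted with edgeR 4.0.16 in R 4.3.3 (TMM, filterByExpr, glmQLFit, glmQLFTest, Benjamini-Hochberg at 0.05), without Clu, Cilp, 1500015O10Rik and Cnmd, and the code was tested on simulated counts. Genes named in these comparisons were the 10 largest changes in each direction among called genes whose mean reached 50 CPM and whose groups did not overlap; for kinds of well, the 10 highest ratios over chondrocyte wells among genes found in at least 25% of the wells with at least 10 UMIs. Genes of the fixed marker lists were counted by list. Sums of 1 plate share that plate, and their deviations from the group means correlated on average at 0.243 (0.130 to 0.388) between outside and articular-like sums and 0.218 (0.0950 to 0.376) between outside and Cnmd-rich sums, against -0.0349 and -0.0316 across plates. Alternatives were DESeq2 1.42.0, its size factors, no filter, other minimums of genes and cells, other limits, a plate block and leaving out each plate. Coding sequences came from the GENCODE vM21 transcripts (GRCm38). A planned permutation test of the blood-like share between lineages and a planned correlation of Bglap over plates are not given, for the reasons stated beside those values.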

Additional observations from a re-analysis of the deposited data

Results flagged for a closer look

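Over 8 plates, 36 values were examined for a plate far from the rest, by the gap between the highest or lowest plate and its neighbour divided by the range of all plates (beyond Dixon's 95% critical value). Chance marks about 1 group in 20, and 8 of the 36 were marked.

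The level of Bglap in chondrocyte wells had a ratio of 0.581, with plate 9 at 3548 UMIs per 1000000 and the next, plate 8, at 1504. Of the others 6 were single-plate peaks of the outside sums: Bmp2 (0.769, plate 6 at 3543 CPM), Camp (0.822, plate 5 at 8941 CPM), Cd74 (0.850, plate 1 at 10588 CPM), Col1a1 (0.818, plate 7 at 153897 CPM), Col1a2 (0.853, plate 7 at 108083 CPM) and Col5a2 (0.771, plate 7 at 2057 CPM). Epyc was marked at 0.630, with plate 9 at 509 CPM and 0 to 189 CPM elsewhere.

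Plate 7 held 2 of the 5 osteoblast-like wells, plate 5 the well BL4 with 233 Camp UMIs and plate 1 the well BL1 with 149 Cd74 UMIs. Plate 6 had only 5 outside wells, the fewest of any plate. The part of these wells in the ratios was not tested by itself.

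Wells under 350 genes, which no comparison used, were marked because 10 of 84 passed the osteoblast threshold, with 5.54 to 27.1% type I collagen. The richest, on plate 8, held 138 Col1a1 and 35 Bglap UMIs of 690. These 10 came from plates 2, 5, 6, 7, 8 and 9; plates 6 and 8 had no osteoblast-like well among the kept cells.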

How the results depend on the processing

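Counts of genes called against articular-like sums (62) moved most: 152 with no filter on low counts, 104 with wells of at least 500 genes, 183 with outside wells under 0.5 of both limits of the rule, 17 without osteoblast-like and blood-like wells, of which 16 were among the 62, and 10 with only the cartilage-rich wells, an alternative added after the data were seen. Leaving out each plate gave 24 to 74. Against Cnmd-rich sums (187) the count was 385 with no filter and 123 with at least 500 genes, and 142 to 180 leaving out each plate; no other alternative moved either count by over 1.5 times. With the plate as a replicate block, since sums of a plate are paired, 86 and 214 genes were called. Of 735 values of named genes under an alternative, 693 kept direction and call, 37 lost and 4 gained the call, and 1 reversed, Col1a2 against articular-like sums with only cartilage-rich wells (log2 fold change -0.23).

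The outside share of 14.9% became 3.83% with the stricter limits above and 48.2% with both limits doubled (13.8 to 16.1% leaving out each plate). The difference of -66.0 percentage points in wells past the blood threshold (Grem1-TdT minus Lepr-TdT) became -32.4 with that threshold doubled (-75.4 to -56.6 leaving out each plate). The highest plate level of Bglap in chondrocyte wells was 5.06 times the median and 2.29 times it without the 2 plates farthest from the median. Osteoblast-like wells numbered 8 with halved thresholds and 11 with at least 250 genes. Depth limits these counts: median outside wells held 1188.5 UMIs, and plate 6 gave 5 wells.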

Other observations

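Housekeeping, cell cycle and early response genes differed among the kinds of outside well. The 9 housekeeping genes made a median of 5.52% of UMIs in blood-like wells (4.23 to 16.6%), 3.10% in cartilage-rich wells and 1.24% in osteoblast-like wells (0.778 to 2.98%). Actb, beta actin, ran from 15 to 50 UMIs in osteoblast-like wells and from 26 to 708 in blood-like wells, where BL6 was highest. Cell cycle genes made a median of 0.354% of UMIs in blood-like wells, with 12 of 13 genes detected, and were at a median of 0 in every other kind. Over the 337 articular-like and 245 Cnmd-rich wells, 11 and 12 of the 13 had a UMI. BL3 and BL6 each held 11 of the 13 and BL2 held 9. The 10 immediate early genes, transcription factors and others that respond rapidly to stimuli, made a median of 0.565% in osteoblast-like, 0.862% in blood-like, 1.63% in low-cartilage and 2.73% in cartilage-rich wells, beside 2.31% in articular-like and 3.32% in Cnmd-rich wells. All are shares of each well's UMIs, of which type I collagen and osteocalcin together took more than all other genes analysed in OB2, OB3, OB4 and OB5.

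Fibroblast, tendon and synovium genes, Dcn among them, made a median of 1.49% in cartilage-rich and 0.964% in low-cartilage wells, 0.474% in osteoblast-like and 0.299% in blood-like wells, against 2.37% in articular-like wells. Endothelial genes had 5 UMIs over the 91 other wells and 0 over the 11 osteoblast-like and blood-like wells. Muscle and mural genes had 1 to 16 UMIs per kind of well, 11 of them Acta2 in a single plate 2 well. Fn1, fibronectin, reached 152 UMIs in a plate 9 low-cartilage well and 138 in a plate 8 cartilage-rich well, and passed 1% of UMIs in 8 of 20 and 14 of 71 wells of those kinds.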
